A study of Mus musculus with 6 samples.

Results

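The 10 genes Nlrc5, Psmb8, Psmb9, Psmb10, Tap1, Tap2, Tapbp, Erap1, Calr and Pdia3 make, trim, transport and load the peptides that MHC class I molecules display. They were taken by symbol from the 25509 gene rows of the deposited count table, by a rule that uses no measured value. The reason for looking at them in ACE-overexpressing cells is that angiotensin-converting enzyme (ACE), a carboxypeptidase of the secretory pathway, can itself trim class I peptides. Each symbol stood on a single row, and all 10 passed the filter on low counts that left 12827 genes for testing.

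Class I molecules carry fragments of a cell's own proteins to its surface, where CD8 T cells read them. The fragments are cut by the proteasome. Interferon gamma replaces its catalytic subunits Psmb5, Psmb6 and Psmb7 with the immunoproteasome subunits Psmb8, Psmb9 and Psmb10, which alters the cuts. The Tap1-Tap2 transporter pumps the fragments into the endoplasmic reticulum (ER), Erap1 shortens their amino ends there, and tapasin (Tapbp) with calreticulin (Calr) and the disulfide isomerase ERp57 (Pdia3) holds the empty class I molecule beside the transporter until a peptide fits. Nlrc5 is the transactivator that binds class I promoters together with the RFX and NF-Y proteins. Macrophages use this machinery when they present antigen.

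Peritoneal macrophages of C57BL/6 mice had been compared between Tg-ACE mice (labelled JWT (Tg-ACE)), which overexpress ACE, and wild-type (WT) mice, with 3 libraries per genotype. In both groups the cells were drawn into the peritoneal cavity by thioglycollate, harvested on day 4, separated on a Percoll density gradient and kept if they adhered within 2 h of culture. The series' design text calls the first group Tg-NKO, and the labels give neither the promoter that drives the transgene nor the age or sex of the mice, nor whether the libraries came from separate mice, so p-values measure the spread between these libraries. By the descriptions, replicates 2 and 3 of each genotype carry the experiment code Exp-156b and replicate 1 carries Exp-156. What these codes mean is not in the labels.

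The libraries held 24294258 to 28120394 expected counts, with 15563 to 15885 genes detected. Members ranged from 667 expected counts for Nlrc5 in Tg-ACE replicate 3 to 24946 for Calr in Tg-ACE replicate 1, far above the 3 counts (0.107 to 0.123 CPM, counts scaled to library size) taken as the limit of detection. Ace, the targeted gene, stood at 100.6, 25.6 and 31.8 CPM in Tg-ACE replicates 1, 2 and 3, against 16.7, 7.60 and 11.6 CPM in WT replicates 1, 2 and 3. Every Tg-ACE library was above every WT library, although the log2 difference of 1.95 (SE 0.23) missed the threshold of 0.05 in the quasi-likelihood test of edgeR, Benjamini-Hochberg adjusted over all genes (adjusted p = 0.137). The codes differed in sex-linked genes. Xist, transcribed in female cells, had 327.3 to 454.5 CPM in the 4 Exp-156b libraries and 0.527 and 0.409 CPM in the Exp-156 libraries. The Y-linked Ddx3y had at most 0.1065 CPM in Exp-156b and 51.6 and 47.95 CPM in Exp-156. By these genes the Exp-156b libraries read as female and the Exp-156 libraries as male. Any difference between codes therefore cannot be told apart from a difference between sexes. The macrophage markers (Adgre1, Cd68, Csf1r, Lyz2, Mertk, Fcgr1, Itgam and Cd14) summed to 18060 to 22010 CPM over the 6 libraries, so the labelled cell type's markers were abundant in each.

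Tap1, Psmb9, Psmb8, Tap2 and Tapbp lie together in the MHC region of chromosome 17. In GRCm38, Psmb9 covers chr17:34181987-34187764 on the minus strand, Tap1 chr17:34187553-34197225, Psmb8 chr17:34197721-34201454 and Tap2 chr17:34203527-34216321, the last 3 on the plus strand. Psmb8 begins 495 bases after Tap1 ends and Tap2 2072 bases after Psmb8. Tapbp (chr17:33915899-33929292, plus strand) is 274234 bases from Tap2 in the direction of lower coordinates. The other members are Erap1 (chr13:74639568-74693201, plus), Calr (chr8:84841850-84846934, minus), Nlrc5 (chr8:94434356-94527272, plus), Psmb10 (chr8:105935735-105938444, minus) and Pdia3 (chr2:121413775-121438687, plus). The annotated exons of Tap1 and Psmb9 share 212 bases on opposite strands, and the expected counts of both were not whole numbers, so reads there may have been divided between them. Exons of Tapbp share 149 bases with Zbtb22 on the same strand, and those of Erap1 share 834 bases with Cast on the opposite strand. How the counting treated strand was not stated in the sources, so these levels carry that uncertainty.

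RefSeq promoter windows (250 bases before to 50 bases after the annotated start, build GRCm38.p6) were found for 8 of the 10 members, not for Tap2 and Nlrc5. Tap1 and Psmb9 start from a shared interval and are transcribed away from each other, and this interval is shown because their levels are compared across libraries in the paragraphs that follow. The capitals mark the match to GGGCGG, an Sp1-type letter string, which reads on the minus strand here. The Erap1 stretch is shown because Erap1 was among the members that differed between experiment codes, and its capitals mark a match to GAAA, any 2 bases and GAAA again, the letters of an interferon-stimulated response element (ISRE), on the strand opposite to the gene.
Tap1-Psmb9 interval, chr17:34187331-34187555, plus strand: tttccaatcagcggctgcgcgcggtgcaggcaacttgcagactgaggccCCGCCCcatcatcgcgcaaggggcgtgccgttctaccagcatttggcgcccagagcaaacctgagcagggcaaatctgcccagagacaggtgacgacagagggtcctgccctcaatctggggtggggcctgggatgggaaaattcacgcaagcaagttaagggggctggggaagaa
Erap1 start, chr13:74639703-74639858, plus strand: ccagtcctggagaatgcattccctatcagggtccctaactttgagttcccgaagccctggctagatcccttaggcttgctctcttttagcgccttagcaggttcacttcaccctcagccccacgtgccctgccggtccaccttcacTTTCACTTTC
Both strands of each window were searched. The ISRE-type letters occurred in 1131 of 32851 RefSeq promoter windows (3.44%) and, among the 8 member windows, in that of Erap1. GGGCGG occurred in 35.7% of all windows. TTCNNNGAA, the letters of a gamma-activated site, occurred in 8.30% of all windows and, among the members, in that of Psmb8 at bases -97 to -89 from its start. These matches describe letters and are not binding sites.

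Between genotypes, the class I processing genes differed little. No member passed the test for Tg-ACE minus WT, where 2 of 12827 genes (0.0156%) passed and 831 (6.48%) had an unadjusted p under 0.05, none of them a member. The members' log2 differences ran from -0.21 for Tap1 to 0.05 for Calr, 8 below 0 and 2 above, with a median of -0.06 beside -0.01 over all genes tested. Their 95% intervals together spanned -0.64 to 0.39 on the log2 scale, so larger differences than these lie outside the interval of every member. In no member did the 3 Tg-ACE libraries stand clear of the 3 WT libraries, as they did in 4.91% of genes tested (2.38% higher and 2.53% lower in Tg-ACE).

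Nlrc5, the transactivator, had 49.0, 30.1 and 27.4 CPM in Tg-ACE replicates 1, 2 and 3, against 34.3, 47.0 and 30.8 CPM in WT replicates 1, 2 and 3. The highest values were in Tg-ACE replicate 1 and WT replicate 2, and the groups overlapped. The log2 difference was -0.12 (SE 0.22, 95% interval -0.63 to 0.39, edgeR adjusted p = 0.937), the least precise of the 10.

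Of the immunoproteasome subunits, Psmb8 had 119.3, 127.7 and 127.4 CPM in Tg-ACE libraries, against 116.2, 174.6 and 106.2 CPM in WT libraries. Psmb9 had 36.3, 30.2 and 31.5 CPM in Tg-ACE libraries, against 34.7, 46.7 and 28.1 CPM in WT libraries. Psmb10 had 50.7, 60.9 and 55.4 CPM in Tg-ACE libraries, against 51.4, 65.3 and 51.4 CPM in WT libraries. WT replicate 2 was the highest library for all of these subunits and WT replicate 3 the lowest for Psmb8 and Psmb9. The log2 differences were -0.08 for Psmb8 (SE 0.16, edgeR adjusted p = 0.944), -0.16 for Psmb9 (SE 0.17, adjusted p = 0.875) and -0.01 for Psmb10 (SE 0.10, adjusted p = 0.987).

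The transporter subunits behaved unevenly across libraries. Tap1 had 85.9, 61.9 and 64.0 CPM in Tg-ACE libraries, against 75.6, 102.9 and 63.5 CPM in WT libraries. Tap2 had 84.4, 85.7 and 91.8 CPM in Tg-ACE libraries, against 93.6, 99.1 and 80.6 CPM in WT libraries. WT replicate 2 was again highest for both, but Tap2 spanned a narrower range than Tap1. The log2 differences were -0.21 for Tap1 (SE 0.19, edgeR adjusted p = 0.852) and -0.06 for Tap2 (SE 0.09, adjusted p = 0.910).

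Tapbp, the bridge between transporter and class I molecule, had 286.5, 400.5 and 402.7 CPM in Tg-ACE libraries, against 306.7, 400.3 and 363.9 CPM in WT libraries. Erap1, the trimming aminopeptidase, had 71.4, 85.4 and 82.0 CPM in Tg-ACE libraries, against 66.0, 101.9 and 83.0 CPM in WT libraries. In both genes replicate 1 of each genotype was the lowest, and the genotypes overlapped. The log2 differences were 0.02 for Tapbp (SE 0.07, edgeR adjusted p = 0.975) and -0.06 for Erap1 (SE 0.10, adjusted p = 0.922).

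Calr, the lectin chaperone, had 877.2, 676.7 and 806.9 CPM in Tg-ACE libraries, against 810.1, 738.9 and 726.5 CPM in WT libraries. Pdia3 had 525.8, 382.4 and 436.6 CPM in Tg-ACE libraries, against 517.0, 456.7 and 419.7 CPM in WT libraries. Tg-ACE replicate 1 was the highest library and Tg-ACE replicate 2 the lowest for both, and replicate 1 was the higher one within WT too. The log2 differences were 0.05 for Calr (SE 0.08, edgeR adjusted p = 0.926) and -0.06 for Pdia3 (SE 0.08, adjusted p = 0.905).

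**Figure D1:**
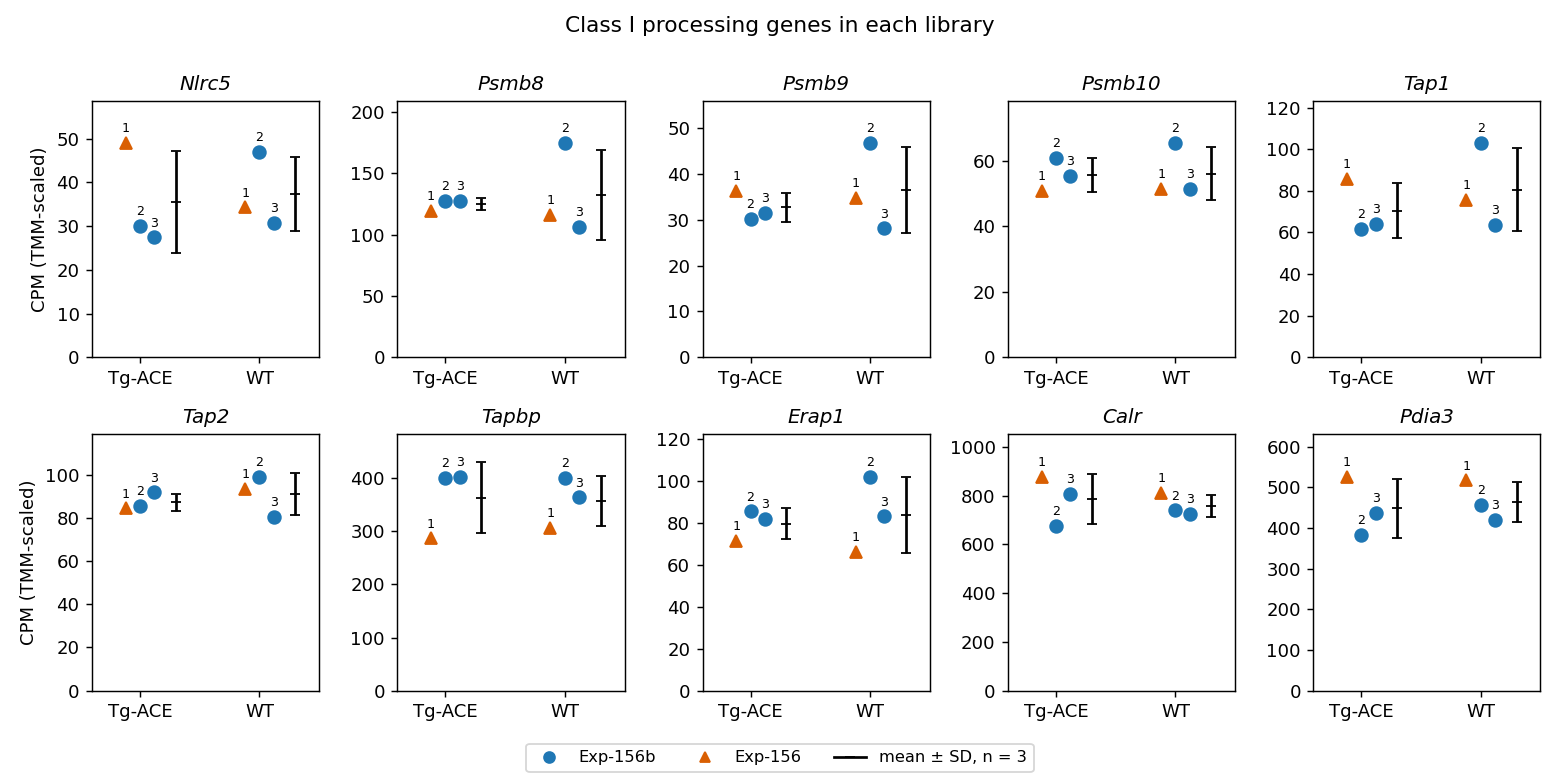
CPM (TMM-scaled) of each class I processing gene in the 3 Tg-ACE and 3 WT libraries, numbered by replicate, with the mean ± SD of each genotype beside the points. Triangles are Exp-156 and circles Exp-156b libraries; WT replicate 2 is the highest point for 6 of the 10 genes, and the genotypes overlap in all 10.

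A single library carried much of the sign of these differences. WT replicate 2 was the highest of the 6 libraries for 6 of the 10 members, and the highest of the 4 Exp-156b libraries for 8 of them. Without it, 9 of the 10 log2 differences lay above 0, with a median of 0.07 in place of -0.06. Tap1 then stood at 0.07, Psmb8 at 0.17, Nlrc5 at 0.17 and Psmb9 at 0.10, and no member passed the test. Irf1, the interferon-induced factor that binds ISRE letters, had 57.1, 54.2 and 49.1 CPM in Tg-ACE libraries, against 55.3, 95.4 and 54.3 CPM in WT libraries, and so was also highest in WT replicate 2.

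**Figure D2:**
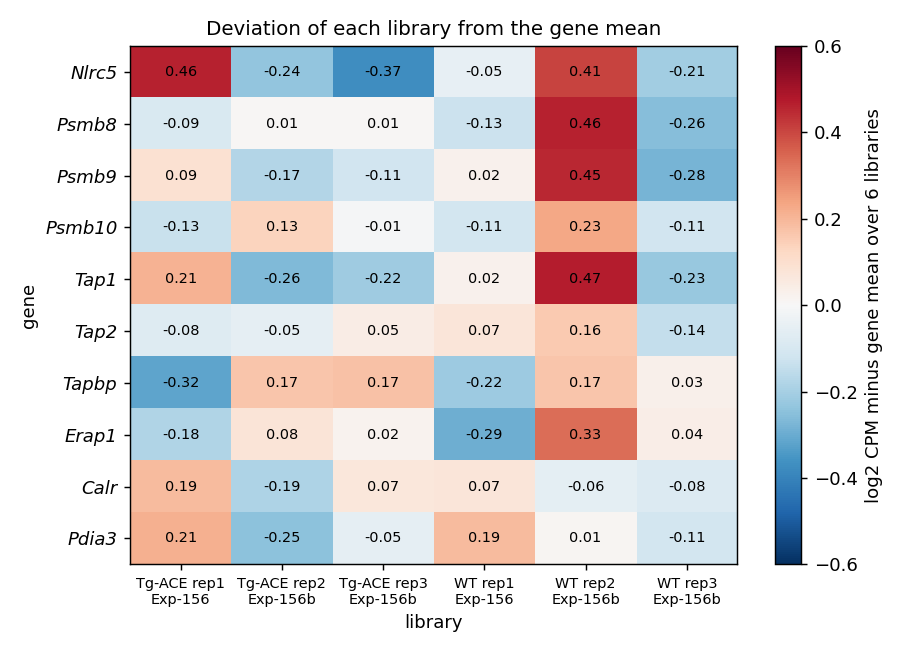
Log2 CPM of each class I processing gene in each library minus the gene's mean over the 6 libraries, Tg-ACE libraries on the left and WT libraries on the right. WT replicate 2 is high for Nlrc5 (0.41), Psmb8 (0.46), Psmb9 (0.45) and Tap1 (0.47), and Tg-ACE replicate 1 is high for Nlrc5 (0.46).

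**Figure D3:**
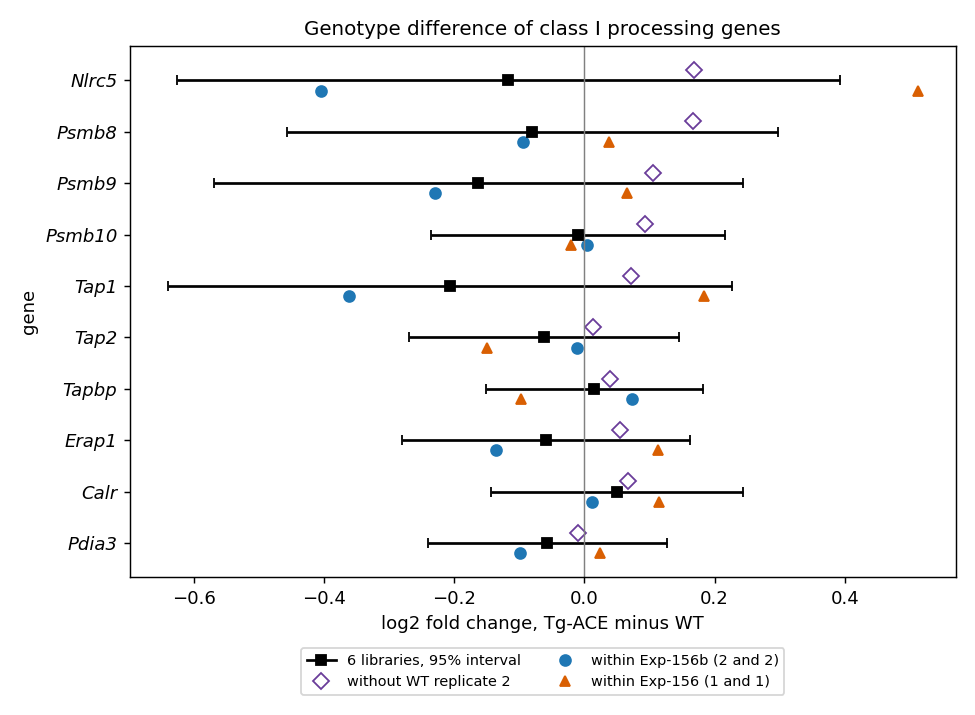
Log2 fold change, Tg-ACE minus WT, of each class I processing gene in the fit with experiment code (squares with 95% interval), without WT replicate 2 (open diamonds), and within Exp-156b (circles, 2 and 2 libraries) or Exp-156 (triangles, 1 and 1). Every interval covers 0, and Nlrc5 lies at 0.51 within Exp-156 and at -0.40 within Exp-156b.

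Whether the genotype difference depended on the experiment code was tested as an interaction, the Tg-ACE minus WT difference in Exp-156b less that in Exp-156. Across all genes 0 of 12827 (0%) passed and 981 (7.65%) had an unadjusted p under 0.05, of which 1 was a member. That member was Nlrc5, whose genotype difference was -0.40 within Exp-156b and 0.51 within Exp-156. The interaction was -0.95 (SE 0.33, 95% interval -1.77 to -0.13, unadjusted p = 0.0297, edgeR adjusted p = 0.647). Tap1 followed with -0.59 (SE 0.37, edgeR adjusted p = 0.715), from -0.36 within Exp-156b and 0.18 within Exp-156. Without WT replicate 2 the interaction was -0.61 for Nlrc5 and -0.20 for Tap1, and the median over members was 0.0043. Without WT replicate 3 it was -1.21 for Nlrc5 (edgeR adjusted p = 0.0758) and -0.89 for Tap1, and the median was -0.28. With DESeq2 13 genes passed, none of them a member. The single Exp-156 library of each genotype was assumed to vary like the Exp-156b libraries, and with all libraries the median over members was -0.15, beside -0.0012 over all genes.

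Between experiment codes, Tapbp and Erap1 were higher and Pdia3 lower in Exp-156b than in Exp-156. These were the 3 of 10 members that passed, beside 5504 of 12827 genes (42.9%), 2559 higher (20.0%) and 2945 lower (23.0%). At an unadjusted p under 0.05 the same 3 members stood beside 6609 genes (51.5%). The members' share lies below that background and was not tested against it. The median over members was -0.03, with 5 above and 5 below 0. Code and sex, as read from Xist and Ddx3y, coincide in these libraries, so these differences cannot be assigned to either.

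Tapbp averaged 391.9 ± 18.7 CPM in Exp-156b (SD, n = 4) and 296.6 ± 14.3 CPM in Exp-156 (SD, n = 2), a log2 difference of 0.40 (SE 0.08, edgeR adjusted p = 0.00487). Erap1 averaged 88.1 ± 9.31 CPM in Exp-156b and 68.7 ± 3.80 CPM in Exp-156 (SD, n = 4 and 2), a log2 difference of 0.36 (SE 0.10, edgeR adjusted p = 0.0262). Pdia3 averaged 423.9 ± 31.5 CPM in Exp-156b and 521.4 ± 6.21 CPM in Exp-156 (SD, n = 4 and 2), and fell by 0.30 on the log2 scale (SE 0.08, edgeR adjusted p = 0.0221). In these genes, and in Calr, the 4 Exp-156b libraries did not overlap the 2 Exp-156 libraries, which was so in 59.8% of all genes tested (28.9% higher and 30.9% lower). Calr averaged 737.2 ± 53.6 CPM in Exp-156b and 843.6 ± 47.4 CPM in Exp-156 and did not pass (log2 difference -0.19, SE 0.09, edgeR adjusted p = 0.112).

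The calls depended on which libraries were kept. Leaving out a replicate 1 kept a single Exp-156 library, and calls over all genes then fell as well, so a lost call is not particular to the members. The Tapbp call was lost without Tg-ACE replicate 1 (0.31, edgeR adjusted p = 0.0583) and the Erap1 call without WT replicate 1 (0.22, adjusted p = 0.251). The Pdia3 call was lost without Tg-ACE replicate 1 (-0.24, edgeR adjusted p = 0.167), WT replicate 1 (-0.37, adjusted p = 0.0604), Tg-ACE replicate 2 (-0.24, adjusted p = 0.0682) or WT replicate 3 (-0.27, adjusted p = 0.0593). Psmb10 passed without WT replicate 3 (0.28, edgeR adjusted p = 0.0492). Psmb8, not called, stood at 0.18 with all libraries, at 0.0065 without WT replicate 2 and at 0.32 without WT replicate 3. Without WT replicate 2, 6 of 10 members passed in place of 3, beside 5263 of 13172 genes tested in that fit (2375 higher and 2888 lower). Tap1 (-0.36, edgeR adjusted p = 0.0100), Nlrc5 (-0.51, adjusted p = 0.0176) and Psmb9 (-0.26, adjusted p = 0.0414) were then lower in Exp-156b. The members' share was not tested against that of all genes.

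With all libraries kept, the remaining members did not pass. The log2 differences were -0.32 for Nlrc5 (SE 0.23), 0.19 for Psmb10 (SE 0.10), 0.18 for Psmb8 (SE 0.17), -0.16 for Tap1 (SE 0.20), -0.07 for Psmb9 (SE 0.18) and 0.01 for Tap2 (SE 0.09), with edgeR adjusted p-values between 0.175 and 0.964. Tap2 was at 89.3 ± 7.99 CPM in Exp-156b and 89.0 ± 6.52 CPM in Exp-156 (SD, n = 4 and 2).

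Markers of macrophages and of other cells moved with the code. The macrophage markers summed to 18060 to 22010 CPM in Exp-156b and 21470 and 21610 CPM in Exp-156, and 6 of their 9 tested rows were called lower in Exp-156b (Adgre1, Csf1r, Fcgr1, Cd14 and both rows of Itgam) and none higher, with a median log2 difference of -0.91. Monocyte markers summed to 17.5 to 25.7 CPM in Exp-156b and 269.5 and 331.8 CPM in Exp-156, with all 5 of 5 called lower in Exp-156b. Large peritoneal macrophage markers summed to 541.4 to 1112 CPM in Exp-156b and 4382 and 3591 CPM in Exp-156, with 5 of 6 called lower and Gata6 higher. Of 5 tested neutrophil markers 2 were called lower, and the 9 listed summed to 11.8 to 16.2 CPM in Exp-156b and 149.9 and 477.5 CPM in Exp-156; the defining Ly6g, Mpo, Elane and Camp were too low to test. Markers of T and NK cells, which make interferon gamma, summed to 4.03 to 9.69 CPM in Exp-156b and 21.7 and 29.1 CPM in Exp-156, with 7 of 8 tested called lower and Ifng itself too low to test. Eosinophil markers summed to 10.3 to 21.2 CPM in Exp-156b and 98.3 and 241.2 CPM in Exp-156 (2 of 2 tested called lower). Mast cell and basophil markers summed to 14.1 to 28.8 CPM in Exp-156b and 61.9 and 96.2 CPM in Exp-156 (6 of 6 tested called lower), and dendritic cell markers to 5.42 to 10.1 CPM in Exp-156b and 53.9 and 68.8 CPM in Exp-156 (2 of 3 tested called lower). Mesothelial and fibroblast markers summed to 276.6 to 574.9 CPM in Exp-156b and 244.3 and 225.9 CPM in Exp-156, with 6 of 9 called higher and 1 lower. B cell markers summed to 66.1 to 153.4 CPM in Exp-156b and 110.0 and 140.4 CPM in Exp-156, with none called, and erythroid and platelet markers to 0.888 to 1.47 CPM in Exp-156b and 5.56 and 6.79 CPM in Exp-156, with the 1 tested called lower. Beside these counts, 20.0% of all genes tested were called higher and 23.0% lower in Exp-156b. Between genotypes no marker was called. In bulk RNA, fewer cells of a type and less RNA per cell cannot be told apart, and the part of other cells in the members' differences was not tested.

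**Figure D4:**
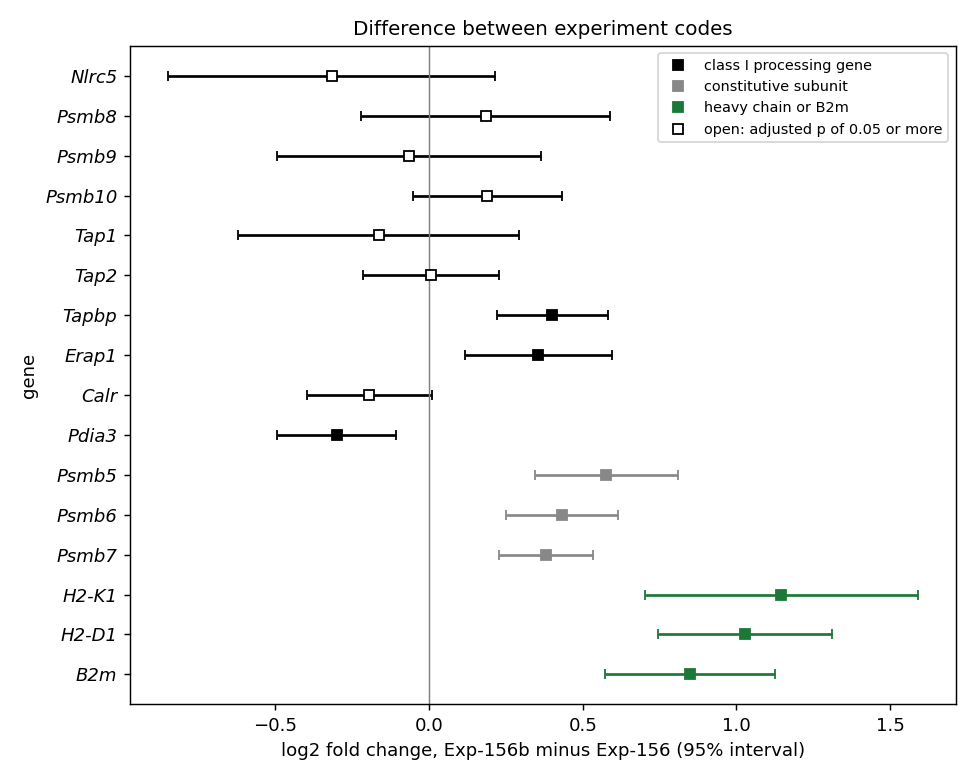
Log2 fold change, Exp-156b minus Exp-156, with 95% interval, for the class I processing genes, the constitutive proteasome subunits Psmb5, Psmb6 and Psmb7, and H2-K1, H2-D1 and B2m; filled squares passed at an adjusted p under 0.05. Tapbp (0.40) and Erap1 (0.36) lie above 0 and Pdia3 (-0.30) below, while the heavy chains and B2m lie between 0.85 and 1.15.

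The class I molecules that these genes serve were higher in Exp-156b. H2-K1, a heavy chain, had 2164 and 2077 CPM in Tg-ACE and 2949 and 1849 CPM in WT libraries of Exp-156b, against 1103 CPM in the Tg-ACE and 936.1 CPM in the WT library of Exp-156, and rose by 1.15 on the log2 scale (SE 0.19, edgeR adjusted p = 0.00263). H2-D1 (1.03, SE 0.12) and B2m, the light chain (0.85, SE 0.12), rose as well. Of the 9 heavy chains and B2m tested, 8 were called higher in Exp-156b, beside 20.0% of all genes tested. The processing genes, with 2 of 10 called higher, were at that background share. Heavy chain genes are near-identical copies, so their counts are uncertain, and no test compared the lists.

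Calr and Pdia3 serve all glycoproteins of the ER and not class I alone. The Calr stretch is shown for its match to CCAAT, any 9 bases and CCACG, the letters of an ER stress response element (ERSE), in capitals on the strand opposite to the gene, at bases -162 to -144. The Pdia3 stretch is shown for comparison, with its CCAAT matches in capitals at bases -79 to -75 and -29 to -25.
Calr upstream, chr8:84846932-84847181, minus strand: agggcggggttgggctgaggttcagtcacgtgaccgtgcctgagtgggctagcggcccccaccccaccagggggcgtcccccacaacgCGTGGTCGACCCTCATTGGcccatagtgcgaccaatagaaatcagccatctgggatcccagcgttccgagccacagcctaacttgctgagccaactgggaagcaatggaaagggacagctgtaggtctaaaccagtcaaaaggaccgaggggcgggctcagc
Pdia3 upstream, chr2:121413652-121413901, plus strand: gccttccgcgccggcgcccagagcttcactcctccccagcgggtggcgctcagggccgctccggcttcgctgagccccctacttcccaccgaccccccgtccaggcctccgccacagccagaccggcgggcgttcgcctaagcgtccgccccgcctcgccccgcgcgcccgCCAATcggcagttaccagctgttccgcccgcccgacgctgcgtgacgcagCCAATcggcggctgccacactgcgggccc
The ERSE letters occurred in 39 of 32851 promoter windows (0.119%) and, of the 8 member windows, in that of Calr. They begin with CCAAT, so every ERSE match holds a CCAAT match by definition. CCAAT itself occurred in 37.4% of all windows and in those of Tap1, Psmb9, Tapbp, Calr and Pdia3 among the members. Of 17 other ER folding and unfolded protein response genes, 4 were called higher in Exp-156b (Dnajb11, Hyou1, Atf4 and Ddit3) and 6 lower (Pdia4, Pdia6, Dnajb9, Dnajc3, Sdf2l1 and Herpud1), with a median of -0.08, beside 20.0% higher and 23.0% lower over all genes. Ddit3, a transcription factor of the stress response, rose by 1.54 (SE 0.08) and Atf4, its upstream activator, by 0.73 (SE 0.08) on the log2 scale. Herpud1, which takes part in ER-associated degradation, fell by 0.65 (SE 0.08), and the chaperone partner Sdf2l1 fell by 0.36 (SE 0.10). None of the 17 passed between genotypes. Creld2, an ER stress-induced gene, was at 23.1 ± 0.562 CPM in Tg-ACE and 21.8 ± 0.281 CPM in WT libraries (SD, n = 3 each). Its libraries did not overlap between genotypes, as in 2.38% of all genes in that direction (log2 difference 0.08, SE 0.07, edgeR adjusted p = 0.847).

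The constitutive catalytic subunits, the counterparts of Psmb8, Psmb9 and Psmb10, all rose in Exp-156b. Psmb5 had 109.7 and 129.2 CPM in Tg-ACE and 103.3 and 100.1 CPM in WT libraries of Exp-156b, against 71.7 CPM in the Tg-ACE and 75.9 CPM in the WT library of Exp-156 (log2 difference 0.58, SE 0.10, edgeR adjusted p = 0.00317). Psmb6 rose by 0.43 (SE 0.08, edgeR adjusted p = 0.00388) and Psmb7 by 0.38 (SE 0.07, adjusted p = 0.00313). Of 14 constitutive subunits 6 were called higher and none lower, with a median of 0.17, beside 20.0% higher over all genes; Psmb3, a non-catalytic subunit, rose by 0.23 (SE 0.07). Between genotypes none passed, and Psmb5 (0.13, SE 0.09), Psmb6 (0.11, SE 0.07) and Psmb4 (0.09, SE 0.07) had the smallest unadjusted p-values.

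The ratio of each immunoproteasome subunit to its counterpart, given here as a description, was lower in 3 of the 4 Exp-156b libraries than in both Exp-156 libraries. Psmb8 over Psmb5 was 1.66, 1.16 and 0.987 in Tg-ACE replicates 1, 2 and 3, against 1.53, 1.69 and 1.06 in WT replicates 1, 2 and 3. Psmb9 over Psmb6 was 0.180, 0.105 and 0.105 in Tg-ACE libraries, against 0.168, 0.173 and 0.113 in WT libraries. Psmb10 over Psmb7 was 0.741, 0.650 and 0.593 in Tg-ACE libraries, against 0.741, 0.759 and 0.596 in WT libraries. The exception was WT replicate 2, whose ratios stood with those of Exp-156 or above them. Summed over the subunits, the ratio was 0.477 ± 0.0990 in Exp-156b (SD, n = 4) and 0.589 ± 0.0191 in Exp-156 (SD, n = 2), and 0.487 ± 0.102 in Tg-ACE and 0.542 ± 0.103 in WT libraries (SD, n = 3 each). These are ratios of CPM, so only differences between libraries can be read from them. The difference between genotypes was smaller than the SD within a genotype, but that SD also holds the difference between codes. The genotype difference in the ratio was not tested.

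**Figure D5:**
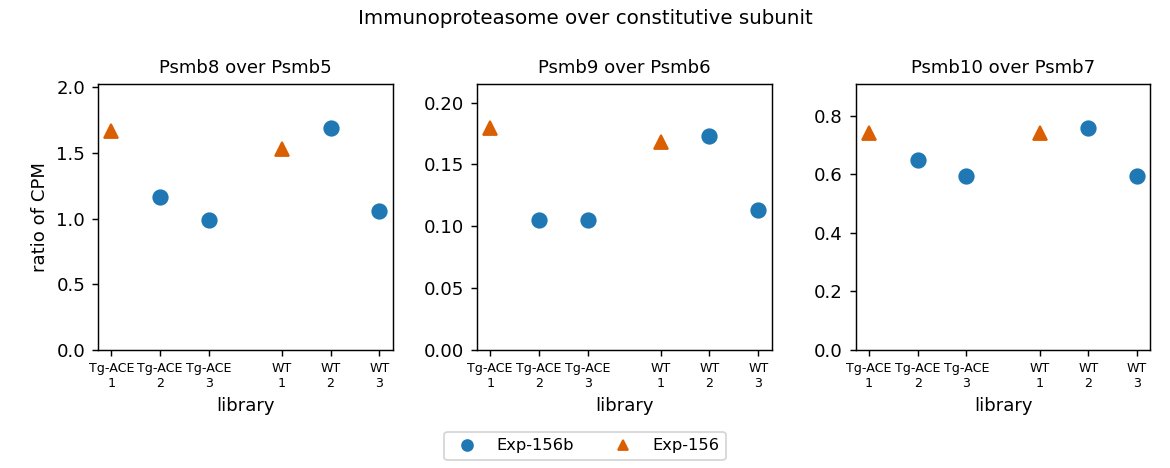
Ratio of CPM of each immunoproteasome subunit to its constitutive counterpart in the 3 Tg-ACE and 3 WT libraries; triangles are Exp-156 and circles Exp-156b. In each panel the Exp-156 libraries and WT replicate 2 lie above the other Exp-156b libraries, as for Psmb8 over Psmb5 with 1.66, 1.53 and 1.69.

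Per kilobase of annotated exon, the members' levels spanned a wide range. Mean CPM per kilobase over the 6 libraries was 268.3 for Calr, 145.4 for Pdia3, 99.3 for Tapbp, 38.0 for Psmb8, 32.8 for Psmb10, 23.6 for Tap2, 13.8 for Tap1, 11.2 for Erap1, 9.45 for Psmb9 and 4.29 for Nlrc5. Among neighbours in this order, the ranges over libraries overlapped between Psmb8 and Psmb10, between Tap1 and Erap1, and between Erap1 and Psmb9. The ranges of Tap1 (11.3 to 18.8) and Psmb9 (7.68 to 12.75), not neighbours, overlapped too. Psmb8 was nevertheless above Psmb10 in each of the 6 libraries, whereas the order of the other overlapping neighbours varied between libraries. The general ER chaperones were thus the most abundant per length and the transactivator the least. The length counts every annotated exon base of a gene (3381 for Psmb8 and 3660 for Psmb9). It can exceed the length of a transcript and lower the level, so the order depends on it. On that scale Tap2 (21.3 to 26.2 CPM per kilobase) stood clear of its partner Tap1 (11.3 to 18.8).

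Genes whose profile over the 6 libraries was most like the members' were sought by Pearson correlation with the mean standardised log2 CPM of the 8 members other than Calr and Pdia3. As measured these were Cd53 (0.991), Nt5dc1 (0.975), Mcts2 (0.964), Utp11l (0.961) and Rnaset2b (0.953). After each code's mean was removed they were Eef1a1 (0.999), Susd6 (0.998), Fnta (0.995), Fv1 (0.993) and Pomk (0.992). Cd53, a tetraspanin of leukocytes, had 639.9, 639.3 and 647.6 CPM in Tg-ACE libraries, against 616.3, 744.6 and 607.1 CPM in WT libraries, highest in WT replicate 2. It was picked for its match to the mean profile, so its highest library follows from that choice. Among the members, Psmb8 was closest to the mean profile (0.990) and Tapbp the least close of the 8 (0.424). Each of these 8 is itself part of the mean, so its closeness is partly built in. Calr and Pdia3, which are not part of that mean, stood at -0.19 and -0.0028 as measured, and Calr at 0.051 and Pdia3 at 0.556 after each code's mean was removed, beside 0.519 for Tapbp. The profiles rest on 6 libraries that share depth and code, and the first measure lets the code count. The second leaves fewer free values. Both lists hold the closest of all genes tested, so correlations this high can follow from the picking alone. Mcts2 (0.954 to 1.42 CPM) and Fv1 (0.517 to 1.62 CPM) were also low.

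Of 20 other class I processing genes, Ace among them with the difference given above, and otherwise such genes as cytosolic and ER peptidases and proteasome activators, none passed for genotype, with a median log2 difference of 0.03. Thop1, a cytosolic oligopeptidase, had the smallest unadjusted p after Ace, with 13.6, 17.5 and 18.2 CPM in Tg-ACE libraries, against 11.7, 12.4 and 14.5 CPM in WT libraries (log2 difference 0.34, SE 0.10, edgeR adjusted p = 0.760). Lnpep, the aminopeptidase that trims peptides in endosomes, had 66.6, 38.5 and 38.7 CPM in Tg-ACE libraries, against 57.5, 58.5 and 52.3 CPM in WT libraries. Its genotype difference was -0.52 within Exp-156b and 0.21 within Exp-156, and the interaction of -0.73 (SE 0.14, unadjusted p = 0.00183) did not pass (edgeR adjusted p = 0.647). Between codes 3 of the 20 were called higher in Exp-156b, the constitutive subunits named above, and 2 lower, Lnpep (-0.43, SE 0.15) and Ace (-1.39, SE 0.23). Neither count exceeds the share over all genes, 20.0% higher and 23.0% lower.

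Of 16 regulators that act at class I promoters, none passed for genotype and 8 were called lower in Exp-156b (Irf2, Irf8, Irf9, Stat2, Nfkb1, Rfxank, Creb1 and Ciita), none higher, with a median of -0.30. Over all genes 23.0% were called lower and 42.9% in either direction. Ciita, the class II transactivator and relative of Nlrc5, had 6.57 and 5.76 CPM in Tg-ACE and 9.12 and 7.99 CPM in WT libraries of Exp-156b, against 42.3 CPM in the Tg-ACE and 47.9 CPM in the WT library of Exp-156, and fell by 2.63 on the log2 scale (SE 0.10, edgeR adjusted p = 6.4e-06). Irf2 fell by 0.999 (SE 0.08) and Creb1 by 0.81 (SE 0.08). Rfx5, the RFX subunit that contacts DNA, had 11.4, 11.2 and 9.29 CPM in Tg-ACE libraries, against 11.8, 13.4 and 13.1 CPM in WT libraries, without overlap but without passing (log2 difference -0.26, SE 0.12, edgeR adjusted p = 0.781). Nfyb, a subunit of the CCAAT-binding NF-Y, likewise did not overlap and did not pass (-0.18, SE 0.09, edgeR adjusted p = 0.790). Over all genes 2.53% stood lower in Tg-ACE without overlap. Rfx5 and Nfyb were named for being among the 3 smallest unadjusted p-values of the list.

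Of 16 interferon gamma receptor and response genes, 13 were tested (Cxcl9, Ido1 and Iigp1 were too low), and none passed for genotype. Between codes the receptor chains parted. Ifngr2 rose in Exp-156b by 0.54 (SE 0.07), to 226.3 ± 5.16 CPM (SD, n = 4), against 155.3 ± 4.65 CPM in Exp-156 (SD, n = 2). Ifngr1 fell by 0.996 (SE 0.09), to 117.4 ± 11.3 CPM in Exp-156b, against 234.0 ± 9.50 CPM in Exp-156. The receptor kinase Jak2 fell by 0.40 (SE 0.09) and the guanylate-binding protein gene Gbp7 by 1.08 (SE 0.15), Cxcl10 was called higher, and the median over the list was -0.30. Gbp4 had the smallest unadjusted interaction p of the list, with a value of -2.28 (SE 0.63, edgeR adjusted p = 0.647), at levels between 0.757 and 2.24 CPM.

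Type I interferon response genes had 14 of 15 tested members above 0 for genotype, a median of 0.28 beside -0.06 for the class I processing genes, and none passed. Over all genes 6200 of 12827 lay above 0, with a median of -0.01. The median was 0.12 within Exp-156b and 0.61 within Exp-156. Oas1a, a double-stranded RNA sensor enzyme, had 76.5, 75.2 and 71.9 CPM in Tg-ACE libraries, against 62.9, 64.1 and 54.1 CPM in WT libraries, with no overlap (log2 difference 0.30, SE 0.08, edgeR adjusted p = 0.715). Such separation, higher in Tg-ACE, was seen in 2.38% of all genes. Usp18, which removes ISG15 from proteins, had 14.2, 6.30 and 7.24 CPM in Tg-ACE libraries, against 8.55, 5.36 and 4.53 CPM in WT libraries (0.55, SE 0.14, edgeR adjusted p = 0.706), and Ifit3 stood at 0.85 (SE 0.28, adjusted p = 0.760). Between codes 6 of the 15 tested were called lower in Exp-156b (Mx1, Oasl2, Usp18, Rtp4, Isg20 and Ddx58) and Rsad2 higher, beside 23.0% lower and 20.0% higher over all genes. Mx1, an antiviral GTPase, fell by 1.75 (SE 0.21).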

How the data were processed

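Stranded poly-A libraries were sequenced as single 75-base reads, per the labels' protocols. The authors deposited RSEM expected counts per gene, not normalized; the submitters' processing notes name RSEM 1.2.25, STAR 2.5.0, GRCh38 and mm10 without their roles. Values were rounded to whole counts (11.0% to 11.3% per library were not whole). The 92 spike-in rows, with 1 count in all, were left out, and 0 columns lacked a sample. No libraries were identical, and the lowest mean chi-square per gene over library pairs was 13.5.

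Genes were fitted in edgeR 4.0.16 (R 4.3.3) by the quasi-likelihood test with genotype and experiment code as terms, TMM scaling, filterByExpr by genotype, and Benjamini-Hochberg adjustment at 0.05 over all genes. The code was a term because genotype alone counts the code difference as replicate spread: the biological coefficient of variation was 0.108 with the code and 0.310 without it. CPM use TMM-scaled totals; figures of deviations use log2 CPM computed with a prior count of 2. Standard errors were obtained from each log2 fold change and the root of its F statistic. Positions came from GENCODE vM21 (GRCm38), where 25251 identifiers matched without their version, Erap1 among them; promoter letters came from RefSeq. One further motif, of NF-kB, was searched by name and occurred in 8.46% of windows, Calr among the members. E-box letters CACGTG occurred in 7.15%, with Erap1, Psmb10 and Calr among the members.

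The members, gene lists and tests were chosen with earlier results of these data known. The genes named beside the members are Ace, the constitutive subunits, Irf1, H2-K1, H2-D1, B2m, Xist, Ddx3y, the most alike profiles, and, from each list and contrast, those of the 3 smallest unadjusted p-values, of which some are given by direction only and 1 named by the rule is not reported here. Alternatives were RLE size factors, DESeq2 1.42.0, limma-voom (limma 3.58.1), other filters, other terms, and leaving out each library.

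Same-numbered libraries had correlated deviations from genotype means (0.856, 0.484 and 0.637), but so did crossed replicates 2 and 3 (0.615 and 0.539). After genotype and code were removed, same-numbered pairs (-0.1772 and -0.1005) and crossed pairs (-0.0941 and -0.1429) overlapped. Removing both terms itself pushes these correlations below 0, so their sign does not bear on pairing. Same-numbered libraries were thus not more alike than crossed ones within Exp-156b. Counting limits cover counting error only.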

Additional observations from a re-analysis of the deposited data

Results flagged for a closer look

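Within the 4 Exp-156b libraries, single libraries stood apart from the others for 3 members by Dixon's ratio of gap to range above its 95% critical value, which chance passes in about 1 in 20 groups. Tap1 was at 102.9 CPM in WT replicate 2, with the other Exp-156b libraries between 61.9 and 64.0 CPM (ratio 0.949). Nlrc5 was at 47.04 CPM in WT replicate 2, with the others between 27.4 and 30.8 CPM (ratio 0.8295, barely above the critical value). Tapbp was lowest in WT replicate 3, at 363.9 CPM, with the others between 400.3 and 402.7 CPM (ratio 0.939). Erap1 (ratio 0.828) and Psmb9 (ratio 0.815) in WT replicate 2 came just under the critical value. The cause was not tested.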

How the results depend on the processing

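No member passed for genotype or for the interaction under any alternative run. Outside of leaving out a library, the 3 members called between codes were called under every alternative, and all member values kept their direction. Genotype calls over all genes, 2 here, were 37 with DESeq2, 9 with no filter on low counts, 0 with genotype alone and 2 to 3 with a library left out. Interaction calls, 0 here, were 13 with DESeq2 and 0 to 14 with a library left out, the most without WT replicate 3. Experiment calls, 5504 here, were 4520 with a filter of 5 CPM in 3 libraries and 5727 with no filter, and with a library left out 3406 (without Tg-ACE replicate 1) to 5263, with 3449 without WT replicate 1. Members called between codes numbered 1 to 6. The fit with replicate number as a block called 2 genes for genotype and 0 members, so it changed no member's call. Of 60 member values for genotype with a library left out, 13 changed sign, and the cause was not tested.

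With a library left out, genotype log2 differences ran over -0.011 to 0.12 (Calr), -0.14 to 0.054 (Erap1), -0.44 to 0.17 (Nlrc5), -0.098 to 0.0032 (Pdia3), -0.11 to 0.093 (Psmb10), -0.25 to 0.17 (Psmb8), -0.32 to 0.10 (Psmb9), -0.40 to 0.072 (Tap1), -0.16 to 0.014 (Tap2), -0.040 to 0.072 (Tapbp) and -0.14 to 0.069 (median). Experiment values that reversed ran over -0.77 to 0.18 (Nlrc5), -0.26 to 0.11 (Psmb9), -0.45 to 0.14 (Tap1), -0.061 to 0.092 (Tap2) and -0.12 to 0.16 (median). Interactions that reversed ran over -0.21 to 0.024 (Calr), -0.14 to 0.20 (Psmb10), -0.48 to 0.23 (Psmb8), -0.65 to 0.069 (Psmb9), -0.0021 to 0.29 (Tap2) and -0.28 to 0.0043 (median); without a replicate 1 the interaction could not be fitted. A lone Exp-156 or Exp-156b library in a genotype was assumed to vary like the others.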
